A study of Homo sapiens with 6 samples.

Results

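The 38 genes described here encode proteins of homologous recombination, of the Fanconi pathway and of the DNA damage checkpoint, together with a pair of mismatch repair proteins. They were taken by gene symbol from a fixed list that was chosen with earlier results of these data known. All 38 were found among the 21151 genes of the count table. The RNA came from CCD-1064Sk, a human dermal fibroblast line from the American Type Culture Collection (CRL-2076), grown in Iscove's medium with serum. In 3 libraries (shZNF469) the cells carried a short-hairpin RNA construct against ZNF469, a zinc-finger gene studied for its effect on extracellular matrix production, and are labelled a ZNF469 knockdown. In the other 3 (shControl) they carried a control hairpin and are labelled WT. The labels call the 3 libraries of a group technical replicates, so the p-values reflect how much these libraries vary and say nothing of separate cultures or hairpins. The sources used here do not give the hairpins' sequences or number, the promoter that drives them, or whether a line is a single clone.

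Homologous recombination repairs a double-strand break by copying an intact sister chromatid: the ends are cut back to single strands, BRCA1 and BRCA2 help these strands to invade the intact copy, and the joined molecules are then taken apart. The Fanconi pathway handles crosslinks between the DNA strands, with a core complex that attaches ubiquitin to FANCD2 and FANCI. The checkpoint kinases ATM and ATR sense breaks and stalled replication and hold the cell cycle through CHEK2 and CHEK1. Many of these genes are known to be transcribed mainly in cycling cells, from promoters that bind E2F factors or carry a cell-cycle homology region (CHR) or CCAAT boxes, and dermal fibroblasts divide in culture.

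Promoter windows are shown for genes of both kinds, those that fell and those that did not pass the test, because they can be set beside the expression values that follow. The sequences are RefSeq's on GRCh38.p14, each 300 bases long, from 250 bases before a gene's start site to 50 after it and written 5′ to 3′ on the gene's own strand. Capitals mark matches on either strand to the E2F words TTTCCCGC and TTTCGCGC, together with TTTGCCGC and also TTTGGCGC, to the CHR word TTTGAA or its relative TTCGAA, and to the CCAAT box. The first set holds the 5 genes with the largest called fall among those with a mean of 5 CPM (counts scaled to library size) or more that have a window, and EXO1 and FANCD2, which were added after their values were seen. FANCA lies at chr16:89816598-89816897 (minus strand), BRIP1 at chr17:61863479-61863778 (minus), BARD1 at chr2:214809634-214809933 (minus), FANCE at chr6:35452088-35452387 (plus), RBBP8 at chr18:22933617-22933916 (plus), EXO1 at chr1:241847954-241848253 (plus) and FANCD2 at chr3:10026187-10026486 (plus).
FANCA: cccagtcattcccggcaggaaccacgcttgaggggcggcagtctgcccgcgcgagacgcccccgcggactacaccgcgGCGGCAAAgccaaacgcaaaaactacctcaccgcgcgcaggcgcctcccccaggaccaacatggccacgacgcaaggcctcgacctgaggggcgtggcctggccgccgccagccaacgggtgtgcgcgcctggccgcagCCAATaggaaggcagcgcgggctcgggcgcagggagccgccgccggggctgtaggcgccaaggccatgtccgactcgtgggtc
BRIP1: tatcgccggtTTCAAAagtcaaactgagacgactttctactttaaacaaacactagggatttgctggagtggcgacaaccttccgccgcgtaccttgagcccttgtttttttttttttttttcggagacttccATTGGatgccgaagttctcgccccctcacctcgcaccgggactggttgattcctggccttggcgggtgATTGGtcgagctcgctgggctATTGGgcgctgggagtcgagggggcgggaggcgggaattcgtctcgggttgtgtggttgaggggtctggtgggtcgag
BARD1: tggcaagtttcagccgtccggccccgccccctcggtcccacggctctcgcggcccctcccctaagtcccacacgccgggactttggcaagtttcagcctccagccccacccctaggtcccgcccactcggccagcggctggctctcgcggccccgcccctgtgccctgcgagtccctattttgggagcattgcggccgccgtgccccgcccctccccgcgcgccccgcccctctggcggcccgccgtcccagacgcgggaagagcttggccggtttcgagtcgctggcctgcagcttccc
FANCE: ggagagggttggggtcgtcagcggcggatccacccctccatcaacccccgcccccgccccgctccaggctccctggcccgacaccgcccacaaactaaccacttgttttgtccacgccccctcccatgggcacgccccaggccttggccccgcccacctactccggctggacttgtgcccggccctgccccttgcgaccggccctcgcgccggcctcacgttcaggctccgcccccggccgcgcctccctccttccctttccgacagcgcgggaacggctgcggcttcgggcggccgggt
RBBP8: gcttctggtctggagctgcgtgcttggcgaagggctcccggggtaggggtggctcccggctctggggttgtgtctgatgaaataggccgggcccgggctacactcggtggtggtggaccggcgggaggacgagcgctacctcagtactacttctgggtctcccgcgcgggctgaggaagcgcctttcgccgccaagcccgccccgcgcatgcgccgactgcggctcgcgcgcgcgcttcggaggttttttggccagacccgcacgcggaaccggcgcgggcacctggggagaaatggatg
EXO1: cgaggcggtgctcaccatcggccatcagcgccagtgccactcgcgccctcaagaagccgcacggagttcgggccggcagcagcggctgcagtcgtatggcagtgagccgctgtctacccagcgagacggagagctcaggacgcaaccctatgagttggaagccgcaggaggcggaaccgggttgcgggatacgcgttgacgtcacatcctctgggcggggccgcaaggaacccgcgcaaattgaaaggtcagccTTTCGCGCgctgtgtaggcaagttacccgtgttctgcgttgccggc
FANCD2: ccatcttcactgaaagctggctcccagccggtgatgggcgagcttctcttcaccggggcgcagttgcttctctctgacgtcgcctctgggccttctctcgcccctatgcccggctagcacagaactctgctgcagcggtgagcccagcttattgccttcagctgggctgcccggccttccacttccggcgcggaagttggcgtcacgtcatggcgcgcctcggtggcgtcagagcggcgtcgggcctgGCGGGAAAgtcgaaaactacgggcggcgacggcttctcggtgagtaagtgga
The second set holds the 3 genes of that level, again with a window, that had the highest p among those not called. FANCC lies at chr9:95317660-95317959 (minus), ATR at chr3:142578684-142578983 (minus) and PALB2 at chr16:23641261-23641560 (minus).
FANCC: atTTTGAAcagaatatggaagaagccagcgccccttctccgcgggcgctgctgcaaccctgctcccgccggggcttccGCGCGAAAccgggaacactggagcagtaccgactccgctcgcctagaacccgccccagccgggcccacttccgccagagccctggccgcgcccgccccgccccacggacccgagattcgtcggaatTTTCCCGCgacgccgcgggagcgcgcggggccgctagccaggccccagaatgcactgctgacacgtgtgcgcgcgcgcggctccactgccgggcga
ATR: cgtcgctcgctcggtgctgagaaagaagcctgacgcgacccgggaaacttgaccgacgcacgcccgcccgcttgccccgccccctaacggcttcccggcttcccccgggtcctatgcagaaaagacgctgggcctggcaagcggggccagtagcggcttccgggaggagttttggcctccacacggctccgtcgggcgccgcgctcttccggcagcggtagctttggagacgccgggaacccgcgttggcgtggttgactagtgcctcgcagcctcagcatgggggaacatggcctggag
PALB2: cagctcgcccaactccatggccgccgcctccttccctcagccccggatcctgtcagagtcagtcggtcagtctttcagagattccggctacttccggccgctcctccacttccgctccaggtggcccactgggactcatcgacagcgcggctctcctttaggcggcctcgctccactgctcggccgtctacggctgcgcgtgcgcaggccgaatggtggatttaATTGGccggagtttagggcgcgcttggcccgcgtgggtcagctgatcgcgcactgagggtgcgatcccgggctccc
An E2F word stands 172 bases before the start of FANCA, 2 bases before that of FANCD2 and 4 bases after that of EXO1. FANCC, which was not called, holds 2 such words, 172 and 46 bases before its start. BRIP1 carries 3 CCAAT boxes and a CHR word, and the windows of BARD1, FANCE, RBBP8 and ATR hold no match. A match is a description of the letters and not a measured binding site.

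Of the 38 genes, 35 had a window in the promoter table, and FANCI, NBN and RMI2 had none; where a gene had several, the one with the most annotated transcript starts nearby was used. An E2F word was found in 5 of the 12 windows of genes called lower in shZNF469 and in 4 of the 23 others. In all, 25.7% of the 35 windows held one, set beside 4.86% of the 16251 windows of genes tested and 3.31% of all 35116 windows in the table. A CCAAT box was found in 4 of the 12 and in 15 of the 23, which makes 54.3% of the 35 beside 34.4% of the windows of genes tested and 34.6% of all windows. For the CHR word the counts were 1 of 12 and 3 of 23, or 11.4% beside 11.9% of the windows of genes tested and 16.4% of all windows. The shares over genes tested and over the table count every window of a gene, without the choice made for the 35, so the measures differ. No test was run on these shares.

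Total counts ran from 41318439 to 48298264 in shZNF469 libraries and from 35417366 to 46911355 in shControl libraries. ZNF469 (ENSG00000225614) had 1000, 906 and 750 counts in shZNF469 libraries and 1416, 2179 and 1494 in shControl libraries. Its level came to 19.4 ± 1.77 CPM in shZNF469 and 42.0 ± 3.70 CPM in shControl (SD, n = 3 each), and 46.2% of the control level was left (log2 fold change -1.12, SE 0.09, edgeR adjusted p = 0.000873). Along the first principal component (30.5% of the variance of log2 CPM) shZNF469 libraries lay at -39.1, -36.7 and -42.2, and shControl libraries at 55.8, 10.2 and 52.0. On the second, with 22.4%, the controls 1 and 3 stood at opposite ends, at 61.6 and -62.2. All 10 fibroblast markers were present, and 3 of them fell (COL1A1, COL1A2 and COL3A1, log2 fold changes -1.75, -0.87 and -0.81) and 1 rose (VIM, 0.32; edgeR adjusted p = 0.0146 or less for these 4). Of the markers of other cell types, those listed were 3 of 8 for keratinocytes, 2 of 7 for melanocytes, 3 of 6 for endothelium and 2 of 6 for immune cells; KRT5, KRT14, MLANA, TYR, PECAM1, CDH5, PTPRC and CD3E were not among the listed genes. The summed level of the keratinocyte markers was 42.0 to 48.6 TPM in shZNF469 and 47.3 to 52.7 TPM in shControl, and that of the melanocyte markers was at least 51.3 TPM in shZNF469 and at most 42.4 TPM in shControl. It was 0.550 to 1.35 TPM in shZNF469 and 0.904 to 1.66 TPM in shControl for the endothelial markers, and 204 to 245 TPM in shZNF469 and 172 to 195 TPM in shControl for the immune markers. PMEL rose, with 25.2 ± 1.07 CPM in shZNF469 and 12.6 ± 0.525 CPM in shControl (SD, n = 3 each; log2 fold change 1.01, edgeR adjusted p = 0.000525). KRT10 fell (-0.51, 0.0190) and DSP rose (0.26, 0.0391), calls lost in 3 and 5 of the 6 fits that left out a library (0.0697 to 0.0817 and 0.0635 to 0.147). CD68 was not called (0.33, 0.146). The part of these markers in the results below was not tested. The share of counts from mitochondrial genes was 4.22 to 4.70% in shZNF469 and 3.73 to 4.06% in shControl.

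All 38 genes passed the filter on low counts. In shZNF469, 14 of them fell, 1 rose and 23 were not called at an edgeR adjusted p under 0.05, where 5.34% of the 16353 genes tested fell and 4.56% rose. Of the 14, XRCC2 and FANCB were listed at 0 in all shZNF469 libraries and passed the filter through shControl alone, and FANCB was not called once zeros were set to the table's listing floor. The log2 fold change (shZNF469 over shControl) lay below 0 for 31 of the 38, as it did for 49.3% of all genes tested. Its median was -0.30, a level 1.23-fold lower, beside a median of 0.00 over all genes tested. In 20 of the 38 genes every shZNF469 library lay below every shControl library, and in 3 every one lay above, where 15.7% of all genes tested were lower and 15.6% higher without overlap; 15 genes overlapped. The count of lower genes was 9, 14 and 12 without shZNF469 replicate 1, 2 and 3, and 8, 8 and 10 without shControl replicate 1, 2 and 3. In the same fits, 2.32, 5.14 and 3.71% of all genes tested were lower without each shZNF469 library, and 1.97, 2.38 and 2.39% without each shControl library.

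By step of repair the counts were as follows, to be read beside the 5.34% of all genes tested that fell and the 4.56% that rose. Among the 9 homologous recombination genes 5 fell (median log2 fold change -1.14), and in the ubiquitination step of the Fanconi pathway 2 of 3 fell (median -0.67). Of the 8 genes of the Fanconi core complex 3 fell (median -0.24). Of the 5 end resection genes 2 fell (median -0.06), of the 5 genes that process joined molecules 1 fell (median -0.85), and of the 6 checkpoint genes 1 fell and 1 rose (median -0.09). Neither of the mismatch repair genes was called. XRCC2 among the 5 recombination calls and FANCB among the 3 core complex calls were listed at 0 in all shZNF469 libraries. The medians also count XRCC2, FANCB, BRCA2, RAD54L and BLM, whose fold changes rest wholly or partly on listed zeros. Whether the steps differ from each other was not tested.

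**Figure D1:**
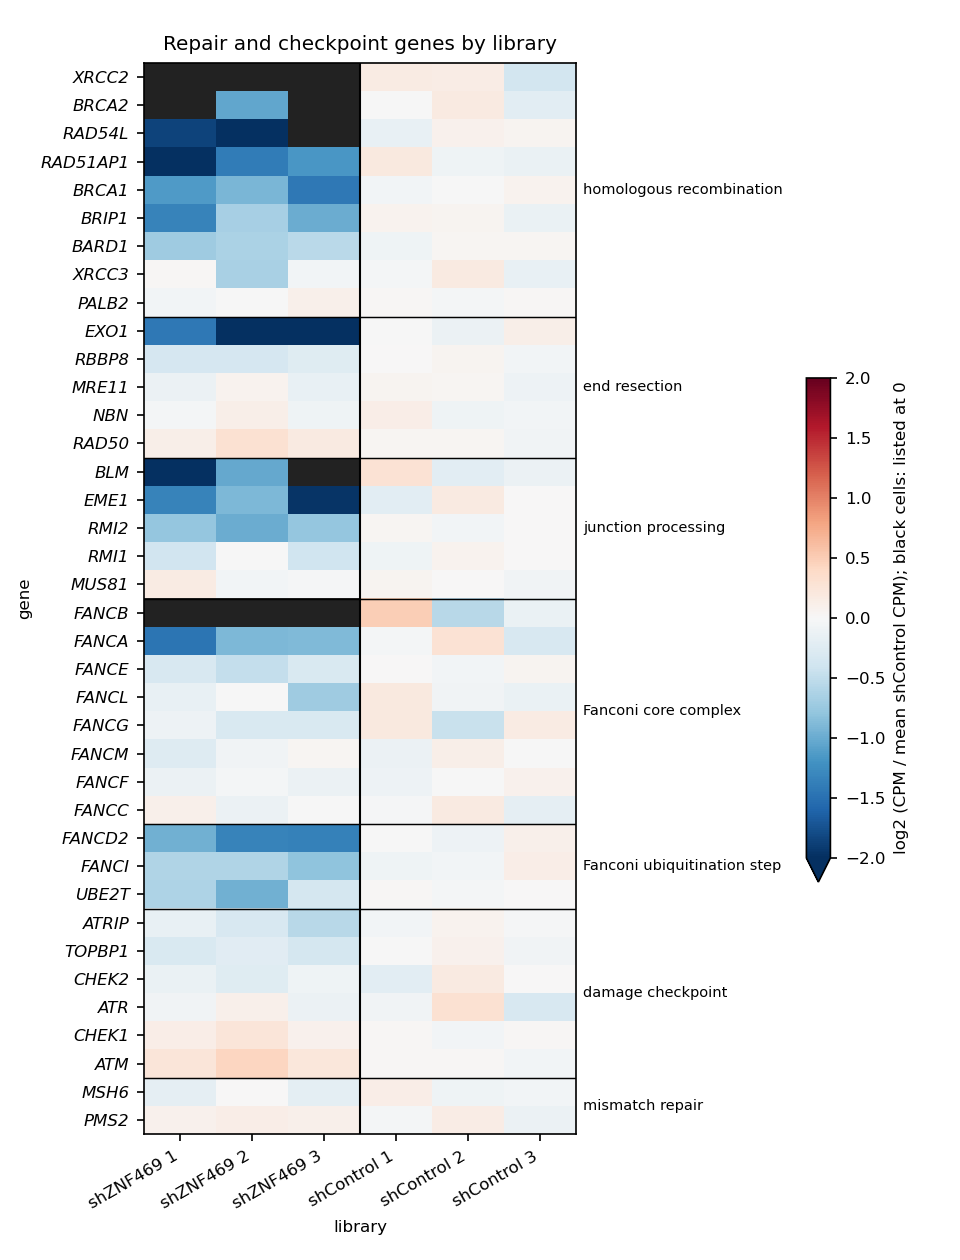
Level of each of the 38 genes (rows, grouped by role) in each library (columns), as log2 of the CPM over the mean CPM of the shControl libraries; blue is lower and red higher, colours end at -2 and 2, and black cells are values listed at 0. In 3, 2 and 5 genes of shZNF469 libraries 1, 2 and 3 the cells are black, and in no gene of a shControl library. XRCC2 and FANCB are black in every shZNF469 library. The blue shZNF469 cells of RAD51AP1, EXO1 and FANCD2 stand beside nearly white rows such as PALB2, NBN and MUS81.

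BRCA1 and its binding partner BARD1, which together form a ubiquitin ligase at damaged DNA, both fell. BRCA1 had 3.13, 3.63 and 2.53 CPM in shZNF469 libraries, against 6.54, 6.77 and 7.16 CPM in shControl libraries (log2 fold change -1.14, SE 0.15, edgeR adjusted p = 0.00537). BARD1 had 4.35, 4.58 and 4.90 CPM in shZNF469 libraries, against 6.71, 7.34 and 7.35 CPM in shControl libraries (log2 fold change -0.63, SE 0.11, edgeR adjusted p = 0.0120). For both genes each shZNF469 library lay below each shControl library. BRCA1 lost its call when the deposited TPM (the authors' length-scaled transcript abundance) were tested in place of counts, with a limma adjusted p of 0.0643 on log2(TPM + 1). BARD1 lost its call in that test too (limma adjusted p = 0.124). It also missed the threshold without shZNF469 replicate 1 (edgeR adjusted p = 0.0566), shControl replicate 2 (0.0586) or shControl replicate 3 (0.0521).

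BRIP1, a helicase that binds BRCA1, and RAD51AP1, which helps DNA strands to pair, fell as well. BRIP1 had 3.08, 4.90 and 3.94 CPM in shZNF469 libraries, against 8.20, 8.09 and 7.11 CPM in shControl libraries (log2 fold change -0.97, SE 0.18, edgeR adjusted p = 0.0170). RAD51AP1 had 1.54, 2.46 and 2.88 CPM in shZNF469 libraries, against 7.44, 6.09 and 5.91 CPM in shControl libraries (log2 fold change -1.50, SE 0.24, edgeR adjusted p = 0.00974). Neither gene overlapped between the groups, and the highest shZNF469 value of RAD51AP1 was under 3 CPM while the lowest shControl value was above 5 CPM. RAD51AP1 was not called without shControl replicate 1 (edgeR adjusted p = 0.0545), nor BRIP1 without shControl replicate 1 (0.0787), shControl replicate 2 (0.0704) or shZNF469 replicate 3 (0.0530). RAD51AP1 has a named pseudogene copy with which reads could be shared, so its value is uncertain to that extent.

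XRCC2, which acts in homologous recombination, was listed at 0 in all 3 shZNF469 libraries, against 83, 108 and 60 counts (2.33, 2.29 and 1.60 CPM) in shControl libraries (edgeR adjusted p = 0.00260). The table gives 0 to any gene under a floor: its lowest TPM above 0 was 0.333 to 0.360 in shZNF469 libraries and 0.342 to 0.456 in shControl libraries, which for XRCC2 stands for 31.9 to 32.4 counts in shZNF469 libraries and 31.9 to 33.4 in shControl libraries. These counts are approximate, since the ratio of count to TPM of a gene varies between libraries. A listed 0 is therefore no measure of absence. The main fit does give a fold change for such a row, and the adjusted p above comes from it. That fold change is not printed here, though the medians count it. With zeros replaced by that floor, an alternative chosen after seeing the data, the log2 fold change of XRCC2 was -1.54 (SE 0.24, edgeR adjusted p = 0.00564). Every shZNF469 value of XRCC2 is then the fill, so the SE and p do not measure how those libraries vary. Its relative XRCC3 was not called, with a log2 fold change of -0.20 (95% interval -0.68 to 0.29).

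BRCA2, which acts on the single strands after resection, touched the same floor. It was listed at 0 in shZNF469 libraries 1 and 3 and had 2.20 CPM in shZNF469 library 2, against 4.49, 5.14 and 3.90 CPM in shControl libraries. The groups did not overlap, but the gene was not called (edgeR adjusted p = 0.281). It was called lower without shZNF469 replicate 2 (0.00210). The shZNF469 values left in that fit are listed zeros, so the call rests on zeros alone. With zeros set to the floor the log2 fold change was -1.17 (edgeR adjusted p = 0.00606). The filled counts are nearly equal (81.1 and 82.4), so this p does not measure how the libraries vary. RAD54L, a motor protein that moves along DNA, had 0.707 and 0.605 CPM in shZNF469 libraries 1 and 2 and was listed at 0 in shZNF469 library 3, against 2.30, 2.72 and 2.65 CPM in shControl libraries (edgeR adjusted p = 0.148). It too was called lower with zeros at the floor (log2 fold change -2.05, edgeR adjusted p = 0.00100) and without shZNF469 replicate 3 (0.0139). The first of these calls rests in part on a filled value for shZNF469 library 3. PALB2, which joins BRCA1 to BRCA2, averaged 14.7 ± 0.820 CPM in shZNF469 and 14.5 ± 0.349 CPM in shControl (SD, n = 3 each), a log2 fold change of 0.02 with a 95% interval of -0.16 to 0.19.

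Cutting back of DNA ends is begun by the MRE11, RAD50 and NBN complex with RBBP8 and extended by the nuclease EXO1. EXO1 had the largest fall among the genes called lower that were above 0 in every library. Its level was 1.71, 1.05 and 1.11 CPM in shZNF469 libraries, against 4.58, 4.24 and 4.97 CPM in shControl libraries, a log2 fold change of -1.83 (3.55-fold lower, SE 0.22, edgeR adjusted p = 0.00382). The groups stood far apart, and EXO1 was called in each of the 17 alternative fits, with adjusted p-values up to 0.0262. RBBP8 had a small fall (log2 fold change -0.30, edgeR adjusted p = 0.0365) that was lost in 11 of the 17 fits, among them each of the 6 that left out a library (0.0595 to 0.136).

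None of the genes of the complex that starts the cut was called. RAD50 had 78.9, 89.2 and 81.9 CPM in shZNF469 libraries, against 74.3, 74.2 and 68.7 CPM in shControl libraries (log2 fold change 0.20, 95% interval 0.05 to 0.36, edgeR adjusted p = 0.108). All 3 shZNF469 libraries lay above the controls, and the gene was not called except by DESeq2 (adjusted p = 0.0123). For MRE11 the log2 fold change was -0.06 (95% interval -0.25 to 0.13) and for NBN it was 0.00 (95% interval -0.19 to 0.19).

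Joined DNA molecules are separated by the BLM helicase with RMI1 and RMI2, or cut by the nuclease pair MUS81 and EME1. RMI2 had 4.13, 3.53 and 4.11 CPM in shZNF469 libraries, against 7.27, 6.81 and 7.08 CPM in shControl libraries (log2 fold change -0.85, SE 0.11, edgeR adjusted p = 0.00523). Both groups were tight, they did not overlap, and the call held in all 17 alternative fits. RMI1 was not called (log2 fold change -0.25, 95% interval -0.55 to 0.05). BLM had 0.386 and 1.15 CPM in shZNF469 libraries 1 and 2 and was listed at 0 in shZNF469 library 3, against 2.84, 2.02 and 2.14 CPM in shControl libraries (edgeR adjusted p = 0.252). The estimated floor of BLM, 34.9 counts in shZNF469 library 1, lies above the 18 counts listed there, so it is no floor for this gene and no value is drawn from it.

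Of the other pair neither gene was called. MUS81 had 22.9, 19.8 and 20.1 CPM in shZNF469 libraries, against 21.3, 20.6 and 19.6 CPM in shControl libraries (log2 fold change 0.03, 95% interval -0.15 to 0.21). EME1 was lower without overlap but was not called (log2 fold change -1.33, 95% interval -2.20 to -0.45, edgeR adjusted p = 0.0708), and it passed in 3 of the 17 alternative fits. On the other strand MUS81 overlaps exons of CFL1 and EFEMP2, and EME1 those of LRRC59, so the levels of both genes are uncertain.

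In the Fanconi pathway FANCD2 and FANCI, the proteins that receive ubiquitin, both fell. FANCD2 had 2.76, 2.12 and 2.12 CPM in shZNF469 libraries, against 5.33, 5.01 and 5.77 CPM in shControl libraries (log2 fold change -1.20, SE 0.16, edgeR adjusted p = 0.00502). FANCI had 12.3, 12.4 and 10.7 CPM in shZNF469 libraries, against 17.7, 18.2 and 20.6 CPM in shControl libraries (log2 fold change -0.67, SE 0.10, edgeR adjusted p = 0.00688). Neither overlapped between the groups, and both kept the call in all 17 alternative fits. FANCD2 has a pseudogene copy and an overlapping gene on the other strand, and FANCI overlaps POLG. UBE2T, the enzyme that hands ubiquitin to the pair, missed the threshold narrowly (log2 fold change -0.63, SE 0.16, edgeR adjusted p = 0.0512) and passed it in 7 of the 17 fits, among them the one without shZNF469 replicate 3 (0.0315).

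Of the core complex, FANCA and FANCE fell, FANCB was called from zeros, and FANCC, FANCF, FANCG, FANCL and FANCM were not called. FANCA was 2.08-fold lower (edgeR adjusted p = 0.0243) and FANCE 1.29-fold lower (0.0281). FANCA lost the call without shZNF469 replicate 1 (0.0785), shControl replicate 1 (0.0888) or shControl replicate 2 (0.0867), and FANCE in 5 of the 6 fits that left out a library (0.0546 to 0.108). On log2(TPM + 1) both lost it as well (limma adjusted p = 0.0651 for FANCA and 0.0512 for FANCE). FANCA shares exon sequence with ZNF276 on the other strand. FANCB was listed at 0 in all 3 shZNF469 libraries, against 73, 47 and 50 counts (2.05, 0.997 and 1.34 CPM) in shControl libraries (edgeR adjusted p = 0.00676). Those control counts stand close to the floor of 41.7 to 43.7 counts, and with zeros set to the floor FANCB was no longer called (log2 fold change -0.64, edgeR adjusted p = 0.222). Among the 5 that were not called, FANCL, the ubiquitin ligase of the complex, had a log2 fold change of -0.25 (95% interval -0.69 to 0.19), and FANCC had -0.01 (95% interval -0.31 to 0.30).

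**Figure D2:**
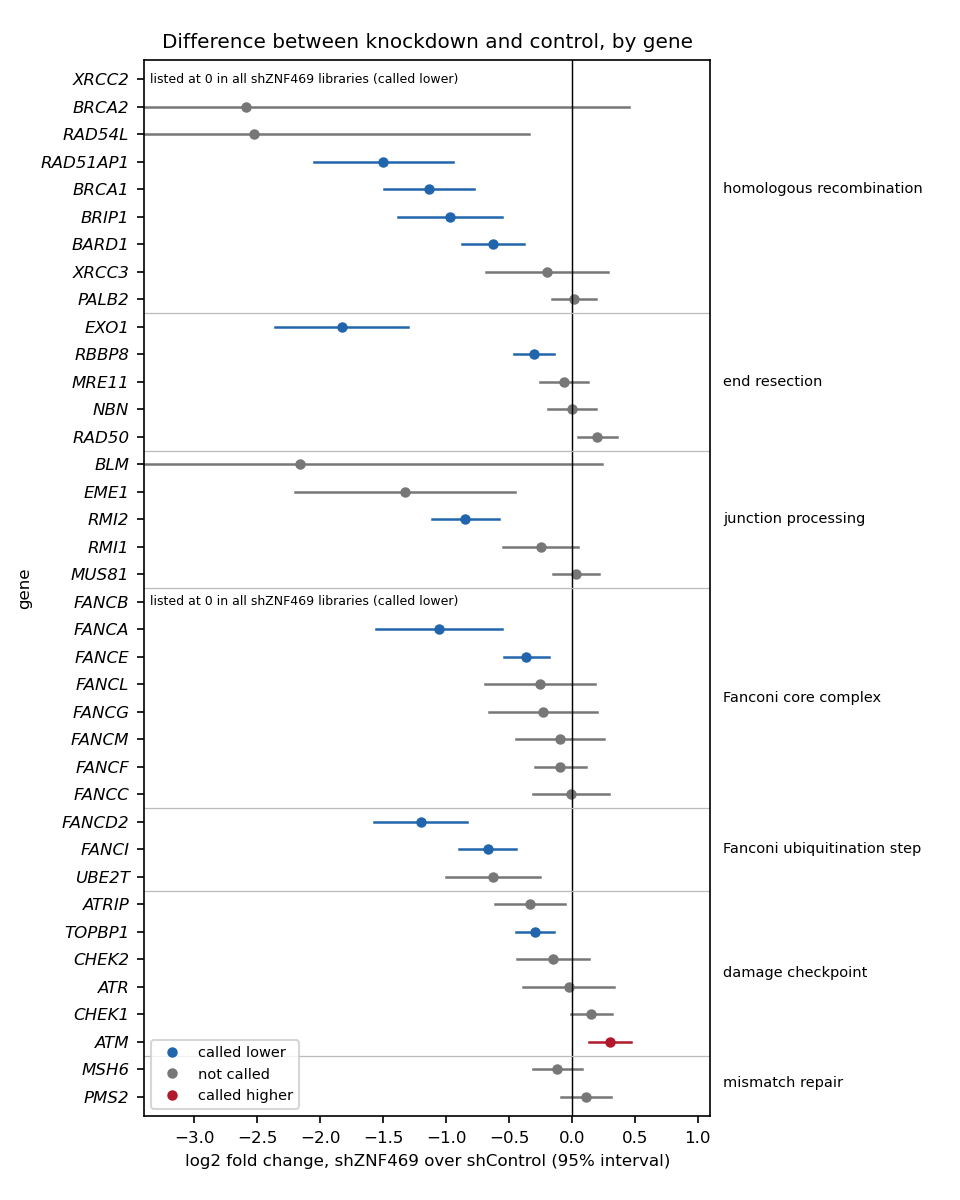
Log2 fold change (shZNF469 over shControl) of each gene by role, with 95% intervals from the edgeR fit; colour gives the call, XRCC2 and FANCB carry no fold because they are listed at 0 in all shZNF469 libraries, and the intervals of BRCA2, RAD54L and BLM, whose points rest in part on listed zeros, run past the left edge. EXO1 (-1.83), RAD51AP1 (-1.50), FANCD2 (-1.20) and BRCA1 (-1.14) lie farthest left among the called genes, PALB2 and MUS81 lie at 0 with narrow intervals, and ATM (0.30) is the only gene called higher.

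Of the 4 checkpoint kinases, 1 rose and none fell. ATM, the kinase that responds to double-strand breaks, rose: it had 71.2, 80.9 and 69.7 CPM in shZNF469 libraries, against 60.9, 61.0 and 57.6 CPM in shControl libraries (log2 fold change 0.30, SE 0.07, edgeR adjusted p = 0.0381). The groups did not overlap in CPM. In the deposited TPM they did, with 12.5, 15.3 and 11.7 TPM in shZNF469 libraries against 11.3, 11.7 and 16.0 TPM in shControl libraries, and the call was lost there (limma adjusted p = 0.950 on log2(TPM + 1)). It was also lost without shZNF469 replicate 1 (0.0913) and without shControl replicate 1, 2 or 3 (0.115, 0.108 and 0.139). ATM overlaps exons of NPAT and C11orf65 on the other strand.

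ATR, the kinase of stalled replication forks, had 18.2, 20.4 and 17.6 CPM in shZNF469 libraries, against 18.2, 23.7 and 15.3 CPM in shControl libraries (log2 fold change -0.03, 95% interval -0.39 to 0.33, edgeR adjusted p = 0.945). The shZNF469 libraries lay inside the range of the controls. CHEK2, the kinase downstream of ATM, had 8.23, 7.61 and 8.49 CPM in shZNF469 libraries, against 7.75, 10.2 and 9.01 CPM in shControl libraries (log2 fold change -0.15, edgeR adjusted p = 0.540), again with overlap. CHEK1, the kinase downstream of ATR, was above the controls in each shZNF469 library but was not called (log2 fold change 0.15, 95% interval -0.01 to 0.32, edgeR adjusted p = 0.225). TOPBP1, which activates ATR, fell slightly (log2 fold change -0.29, edgeR adjusted p = 0.0343), a call lost in 7 of the 17 fits, 5 of them fits that left out a library (0.0688 to 0.136). ATRIP, the partner of ATR, was not called (log2 fold change -0.33, 95% interval -0.61 to -0.05, edgeR adjusted p = 0.139), and the mismatch repair genes MSH6 and PMS2 were not called (log2 fold changes -0.12 and 0.11, edgeR adjusted p = 0.475 and 0.498). CHEK2 and PMS2 have 4 and 11 named pseudogene copies, so their values are uncertain. On the same strand, CHEK1 overlaps exons of STT3A and ATRIP those of TREX1, so these values are uncertain as well.

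Scaled for length, the genes spanned a wide range of levels. MSH6 was the highest, at 24.6 ± 3.29 TPM in shZNF469 and 27.5 ± 3.05 TPM in shControl (SD, n = 3 each), followed in shControl by MUS81, RAD50 and NBN. In shControl MUS81 (22.1 ± 2.34 TPM), RAD50 (22.0 ± 2.51 TPM) and NBN (20.3 ± 1.59 TPM) did not differ beyond their spread. FANCB, BRCA2, XRCC2 and BLM were the lowest in shControl, with means of 0.547, 0.871, 1.02 and 1.04 TPM (SD 0.217 for FANCB, 0.243 for XRCC2 and 0.223 for BLM; 0.713 to 1.01 TPM in the 3 libraries for BRCA2). The falls were counted apart at high and low levels. Of the 16 genes with a mean of 10 CPM or more, 4 fell and 1 rose, where 7.02% of all genes tested at that level fell. Of the 22 under 10 CPM, 10 fell, where 3.03% of all genes tested at that level fell.

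**Figure D3:**
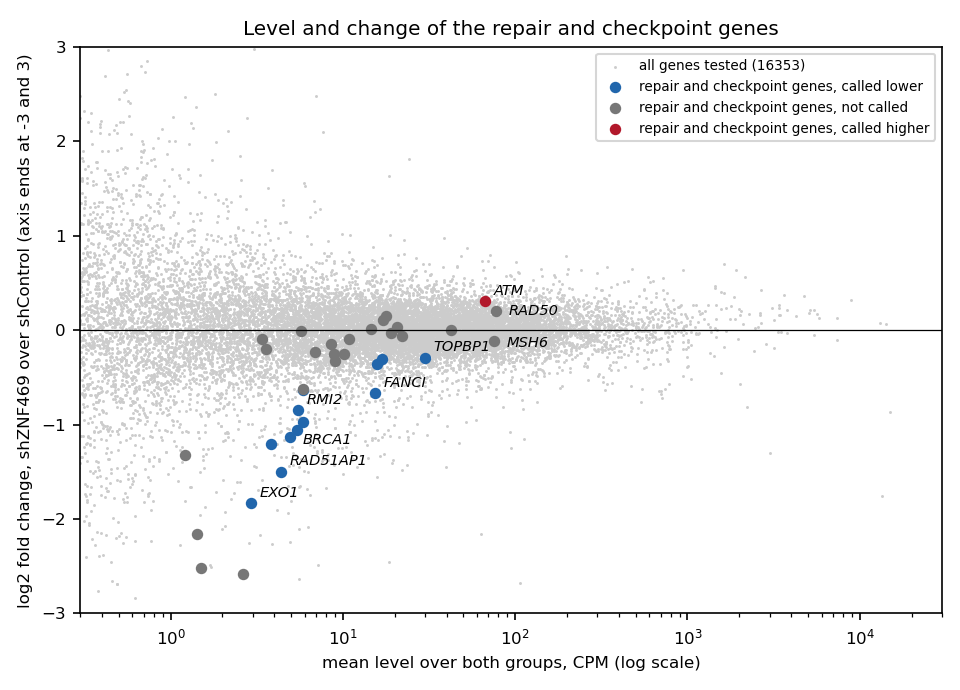
Log2 fold change (shZNF469 over shControl) against the mean level over all libraries in CPM (log scale) for the 16353 genes tested, in grey, with the repair and checkpoint genes as large points coloured by call; XRCC2, FANCB, other genes beyond -3 or 3 and genes of the lowest levels fall outside the axes, and BARD1 lies behind UBE2T. Most of the blue points of genes called lower stand under 10 CPM and below -0.5, while ATM, RAD50 and MSH6, at the highest levels, lie close to 0 (0.30, 0.20 and -0.12).

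The TPM of 13 partner pairs, genes that act in the same complex, repair step or kinase route, were also set against each other within each library. EXO1 to MRE11, XRCC2 to XRCC3, CHEK1 to ATR and CHEK2 to ATM are not subunits of one complex. In 7 pairs the ratio was lower in every shZNF469 library than in any shControl library, in 1 it was higher, and in 5 the groups overlapped. No share over other gene pairs was computed, so these counts have no baseline. The pairs were chosen with earlier results known, and their ratios partly restate the levels of the single genes given above. With 3 libraries against 3 the exact permutation test (two-sided) cannot go below p = 0.1, and p adjusted over the pairs that could be tested cannot show a difference at 0.05. The ratio of FANCD2 to FANCI was 0.196, 0.149 and 0.177 in shZNF469 libraries, against 0.272, 0.250 and 0.254 in shControl libraries (exact permutation p = 0.1, adjusted 0.2). The ratio of EXO1 to MRE11 was 0.201, 0.0871 and 0.107 in shZNF469 libraries, against 0.356, 0.367 and 0.493 in shControl libraries (exact permutation p = 0.1, adjusted 0.2). In both pairs the first gene was thus the lower one relative to its partner.

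The same order held for RMI2 to RMI1, at 1.16, 0.737 and 1.15 in shZNF469 libraries against 1.66, 1.38 and 1.48 in shControl libraries, and for EME1 to MUS81, at 0.0395, 0.0417 and 0.0192 in shZNF469 libraries against 0.0736, 0.121 and 0.0846 in shControl libraries. The ratios of BRCA2 to PALB2, BLM to RMI1 and XRCC2 to XRCC3 were lower without overlap too, each with at least 1 shZNF469 library listed at 0 for the first gene. The ratio of CHEK1 to ATR was the one that was higher, at 2.14, 2.32 and 2.56 in shZNF469 libraries against 1.79, 1.59 and 2.07 in shControl libraries (exact permutation p = 0.1, adjusted 0.2). The overlap of CHEK1 with STT3A leaves this ratio uncertain. BRCA1 to BARD1 overlapped, at 0.516, 0.741 and 0.341 in shZNF469 libraries against 0.690, 0.914 and 0.730 in shControl libraries (exact permutation p = 0.3, adjusted 0.375).

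**Figure D4:**
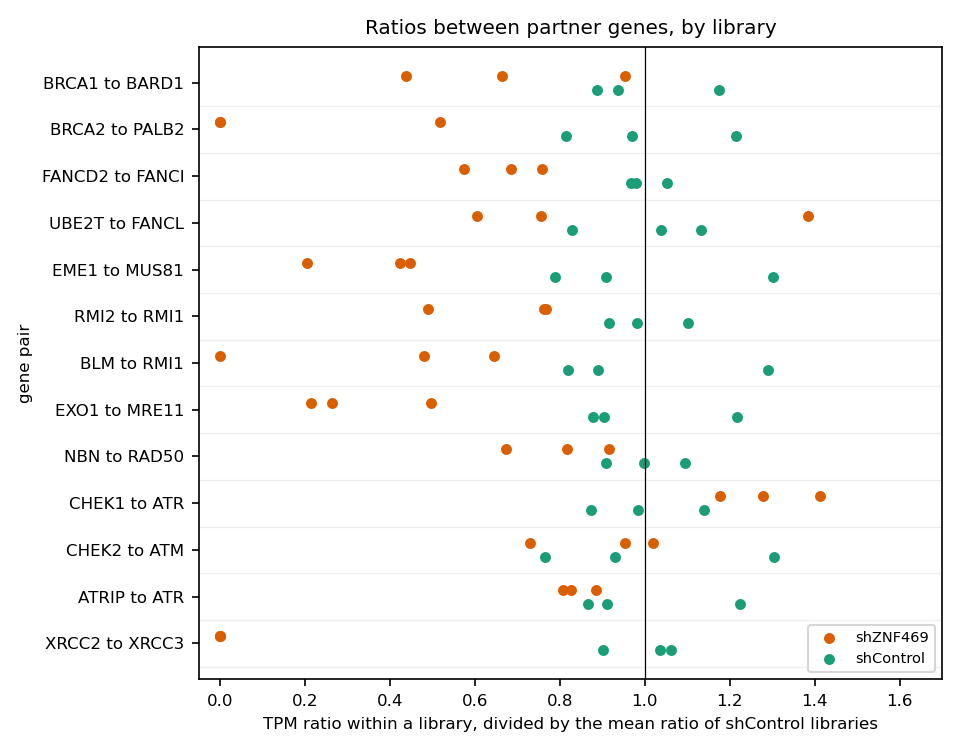
TPM ratio of 13 gene pairs in each library, divided by the mean ratio of the shControl libraries (line at 1); orange points are shZNF469 and green points shControl libraries, and points at 0 lie on top of each other where a gene is listed at 0 in more than 1 library. EXO1 to MRE11, FANCD2 to FANCI and EME1 to MUS81 have all orange points left of all green ones, CHEK1 to ATR has them on the right, and BRCA1 to BARD1 overlaps.

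Other genes of the same pathways were read from lists chosen by function. Of 25 other homologous recombination genes 3 fell and none rose (median log2 fold change -0.13). RPA1 and RPA2, which coat single-stranded DNA, fell (log2 fold changes -0.22 and -0.31, edgeR adjusted p = 0.0406 and 0.0338), calls lost in 5 and 6 of the 6 fits that left out a library (0.0843 to 0.138 and 0.0568 to 0.119). RAD51C, which acts in the same pathway, was not called (-0.21, 0.418). Of 12 other Fanconi genes 1 fell: USP1, which removes ubiquitin from FANCD2 (log2 fold change -0.39, edgeR adjusted p = 0.0446, lost in 5 of the 6 fits that left out a library, 0.0897 to 0.162). These shares stand beside the 5.34% of all genes tested that fell, and 1 of 12 is near it.

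Of 20 other checkpoint genes 5 fell and 1 rose. CLSPN, the adaptor through which ATR activates CHEK1, had 1.61, 2.40 and 1.97 CPM in shZNF469 libraries, against 6.93, 8.26 and 7.65 CPM in shControl libraries (log2 fold change -1.93, SE 0.17, edgeR adjusted p = 0.00111). PKMYT1, a kinase that holds CDK1 inactive, fell 3.24-fold (edgeR adjusted p = 0.00340), and H2AX, the histone variant phosphorylated around breaks, fell 1.55-fold (0.00490). TP53BP1, which binds breaks and restrains end resection, was not called (log2 fold change -0.04, edgeR adjusted p = 0.687). CLSPN, PKMYT1 and H2AX did not overlap between the groups, and TP53BP1 did. In other repair routes few genes were called, to be read beside the 5.34% of all genes tested that fell and the 4.56% that rose. None of 5 other mismatch repair genes was called, 1 of 11 end joining genes rose (POLM, log2 fold change 0.56, edgeR adjusted p = 0.0194), 1 of 21 base excision repair genes fell (NEIL3, -1.08, 0.0249), and of 19 nucleotide excision repair genes 1 fell (ERCC2, -0.24, 0.0264) and 2 rose (UVSSA, 0.59, 0.00660, and DDB2, 0.41, 0.0188). Leaving out 1 library ended the call of NEIL3 in 5 of 6 fits (0.0569 to 0.102), of ERCC2 in 5 (0.0647 to 0.111), of POLM in 4 (0.0518 to 0.0847) and of DDB2 in 3 (0.0669 to 0.0806). On log2(TPM + 1), UVSSA, DDB2 and ERCC2 lost their calls (limma adjusted p = 0.142, 0.0771 and 0.0806).

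Markers of dividing cells moved with the groups. All 19 proliferation markers fell (median log2 fold change -1.06), and their summed level was 267 to 279 TPM in shZNF469 libraries and 509 to 528 TPM in shControl libraries. MKI67, a protein of cycling nuclei, had 14.4, 14.6 and 15.4 CPM in shZNF469 libraries, against 33.8, 32.5 and 33.4 CPM in shControl libraries (log2 fold change -1.17, edgeR adjusted p = 0.000159). For the 38 genes the summed level was 245 to 289 TPM in shZNF469 libraries and 300 to 335 TPM in shControl libraries, again without overlap. The part of the proliferation markers in the falls of the repair genes was not tested, and in bulk RNA fewer cycling cells and less RNA per cell cannot be told apart. Of 15 genes known to be induced by p53 after damage, 5 rose and 1 fell (median log2 fold change 0.21). CDKN1A, the p53-induced inhibitor of cell-cycle kinases, had 643, 614 and 662 CPM in shZNF469 libraries, against 462, 473 and 489 CPM in shControl libraries (log2 fold change 0.43, edgeR adjusted p = 0.00251), and SESN1 and RRM2B rose as well (0.43 and 0.46, edgeR adjusted p = 0.00453 and 0.0189); RRM2B lost its call in 4 of the 6 fits that left out a library (0.0546 to 0.0805).

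**Figure D5:**
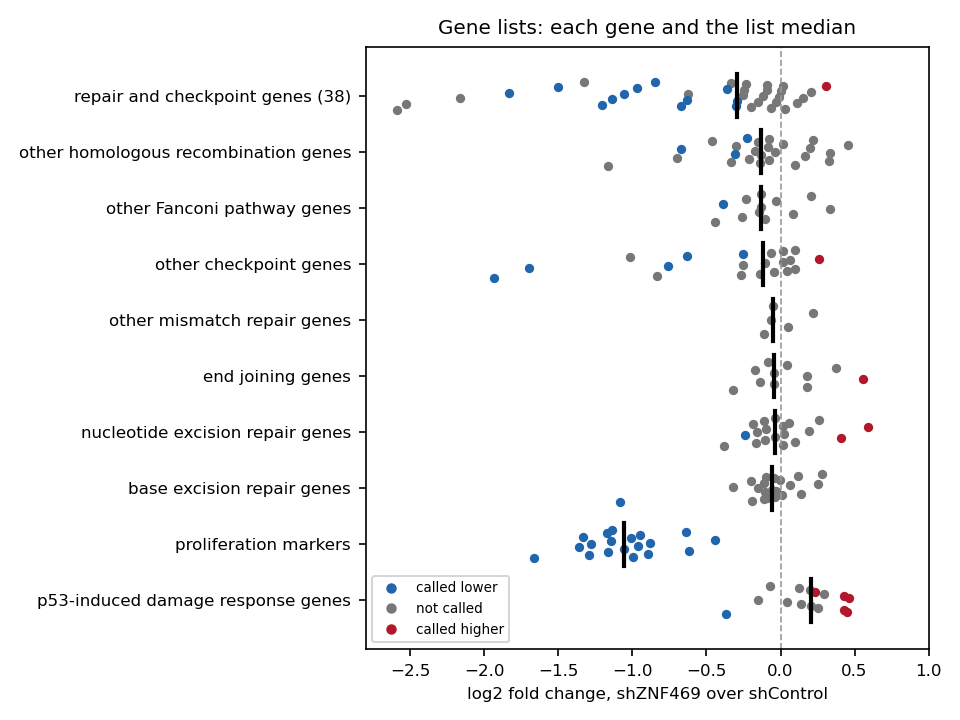
Log2 fold change (shZNF469 over shControl) of each gene in 10 gene lists; points are genes coloured by call and the black bar is the list's median over all its tested genes. XRCC2 and FANCB have no point, since they are listed at 0 in all shZNF469 libraries, but are counted in the median of the 38 genes (-0.30); the proliferation markers lie wholly left of 0 (median -1.06) and the p53-induced genes mostly right of it (median 0.21).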

How the data were processed

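The library kit was NEBNext Ultra RNA, as the labels' protocols state. Per the submitters' processing notes, the GRCh38.p14 build was used with HISAT2 and StringTie, whose versions are not named. The sources used here do not give the annotation release, the strand setting or a low-value filter. The authors deposited, per gene and library, a whole-number count of reads and a TPM value that they computed. Count and TPM are 0 in the same cells.

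The deposited counts were tested with edgeR 4.0.16 in R 4.3.3: genes kept by filterByExpr (minimum count 10), TMM scaling, a two-sided quasi-likelihood F-test of shZNF469 against shControl without covariates, and Benjamini-Hochberg adjustment over the 16353 genes tested, called under 0.05. CPM are TMM-scaled, and intervals are at 95%. Alternatives were DESeq2 1.42.0, limma 3.58.1 (voom, and log2 TPM with a pseudocount of 1 or 0.1), other scalings and filters, a length trend, a block on replicate number, and leaving out each library. The fits were tested on simulated data, where DESeq2 called more unchanged genes than edgeR, so its larger counts need care.

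The deposited counts of library pairs within a group differed by 8.70 to 34.8 chi-square units per degree of freedom, above sampling noise. No batch is labelled. Same-numbered libraries did not deviate together across genes (r = -0.02, 0.08 and 0.03), so the numbers pair nothing. Without a known strand setting, the 20 of 38 genes that overlap an exon on the other strand are uncertain, as are 5 with a same-strand overlap and 6 with named pseudogenes.

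The 38 genes, the lists and the tests were chosen with earlier results of these data known. Named with per-library values were ZNF469, the 10 of the 38 with the lowest p among those lower, those higher, and ATM, ATR, CHEK2, RAD50 and MUS81. BRCA2, RAD54L and BLM were given theirs after their values were seen, because of their zeros, as was PALB2 its mean. Of each other list up to 3 called genes with the lowest p were named, and RAD51C, H2AX, TP53BP1, CLSPN and MKI67. One gene that this rule names is not reported here.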

Additional observations from a re-analysis of the deposited data

How the results depend on the processing

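Of the 14 calls lower, those of EXO1, RMI2, FANCD2 and FANCI held in all 17 alternatives. That of XRCC2 was made in each too, but rests on listed zeros and a filter passed through shControl alone, so this says nothing of its stability. DESeq2 called 16 of the 38 genes lower and 2 higher, and 1589 and 1604 of all genes. On log2(TPM + 1), limma called 9 lower and 0 higher (all genes 526 and 233), with a median log2 fold change of -0.32 for the 38; on log2(TPM + 0.1) it called 7 and 0 (all genes 462 and 191), with a median of -0.36. Leaving out 1 library gave 8 to 14 lower and 0 to 1 higher, 333 to 854 and 204 to 769 over all genes, and a median of -0.33 to -0.27. The cause of these differences was not tested. Other scalings and filters, voom and the length trend gave 13 to 15 lower and 1 higher. Of all genes, these fits gave from 771 lower and 623 higher (no filter, 21151 tested) to 1249 lower and 1096 higher (length trend, 16353 tested). The filter at a mean of 1 CPM tested 37 of the 38 genes and called 929 of 13857 genes lower and 851 higher. With zeros at the listing floor, added after seeing the data, 16 were lower and 1 higher (all genes 868 and 844 of 17421). Of the 16, 12 were among the 14. RBBP8 and FANCB lost the call, and BRCA2, RAD54L, EME1 and BLM gained it, that of BLM from a fill above an observed count. The calls of XRCC2, BRCA2 and RAD54L in this fit rest at least in part on filled values. Partner ratios without overlap numbered 8 in the TPM, 8 to 10 without a library and 10 in counts. Leaving out a library cannot create an overlap, so the range of 8 to 10 says nothing of stability.

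With the replicate number as a block, which is a shared number only and no pairing, 13 of the 38 genes were lower and 1 higher (all genes 736 and 592); RBBP8 lost its call (adjusted p = 0.0792), and of the other named genes RPA1, POLM and NEIL3 lost theirs.

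The 3 libraries a group, technical replicates, limit what could be called. Genes under 10 CPM have few counts, and the listing floor hides values under it, so for XRCC2, FANCB, BRCA2, RAD54L and BLM the size of a difference was not measurable at this depth. FANCB could not be tested at a mean of 1 CPM or more.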
